A study of Mus musculus with 7 samples.

Results

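The cell cycle and replication genes described here are 40 protein-coding genes, chosen by symbol, with 10 acting in G1, 12 in S phase, 7 in G2 and at entry into mitosis and 11 in mitosis. All 40 were found among the 22949 genes that had 1 row, at the same locus, in both RNA tables. The cells were primary dermal fibroblasts, the connective tissue cells of the skin, of the FVB/N mouse strain (females), cultured for 8 days. They were harvested untreated or after 3 h in thapsigargin, an inhibitor of the calcium pump of the endoplasmic reticulum that causes stress in this compartment and induces the transcription factor ATF4. No genotype other than the strain is labelled. There were 7 libraries: RNA from untreated and from treated cells (1 each), chromatin immunoprecipitation of CEBPB from untreated and from treated cells (1 each) and of ATF4 from treated cells (1), and bisulfite sequencing of untreated cells (2, deposited as 1 pooled set of percentages). With 1 RNA library per condition, no difference here has a replicate check and none has a p-value.

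As background, D-type cyclins with CDK4 or CDK6, and cyclin E with CDK2, phosphorylate the retinoblastoma protein in G1 and so free E2F factors to switch on genes of DNA replication. Genes needed in G2 and mitosis are switched on later, through CCAAT boxes bound by NF-Y and a short element called the CHR, which the DREAM and MYB-MuvB complexes bind. Endoplasmic reticulum stress slows protein synthesis, and cyclin D1 protein is known to be lost under it.

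The promoters of the members divided by phase. In the window from 250 bases before to 50 bases after the annotated 5′ end (mouse build mm9), both strands were searched for an E2F element, spelled TTTCCCGC, TTTCGCGC, TTTGCCGC or TTTGGCGC. It occurred in 7 of 12 S phase members, 3 of 10 G1 members, 1 of 7 G2 members and 0 of 11 M phase members. Over all genes 2.92% of such windows held it, and 4.04% over expressed genes. The S phase genes with the element were Cdc6, Cdt1 and the minichromosome maintenance genes Mcm3, Mcm4, Mcm5, Mcm6 and Mcm7; the G1 genes were Cdk2, E2f1 and Rb1, and the G2 gene was Cdk1.

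The CHR, searched as TTTGAA or TTCGAA, was distributed the other way. It occurred in 13 of 18 G2 and M phase members and in 3 of 22 G1 and S phase members, against 16.7% of all windows and 12.9% of those of expressed genes. CCAAT boxes occurred in 17 of 18 G2 and M phase members, 10 of 12 S phase members and 3 of 10 G1 members, against 37.7% of all windows and 37.8% of expressed ones. The phase lists rest on the known roles of the genes, so this division is known from such genes, and a match shows only which letters are in the window. The median GC content was 60.7% for the members' windows and 61.7% for expressed genes. By phase it was 67.7% for G1, 58.3% for S and 57.7% for G2 and for M phase members. The part of GC content in the division of the motifs was not tested.

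**Figure D1:**
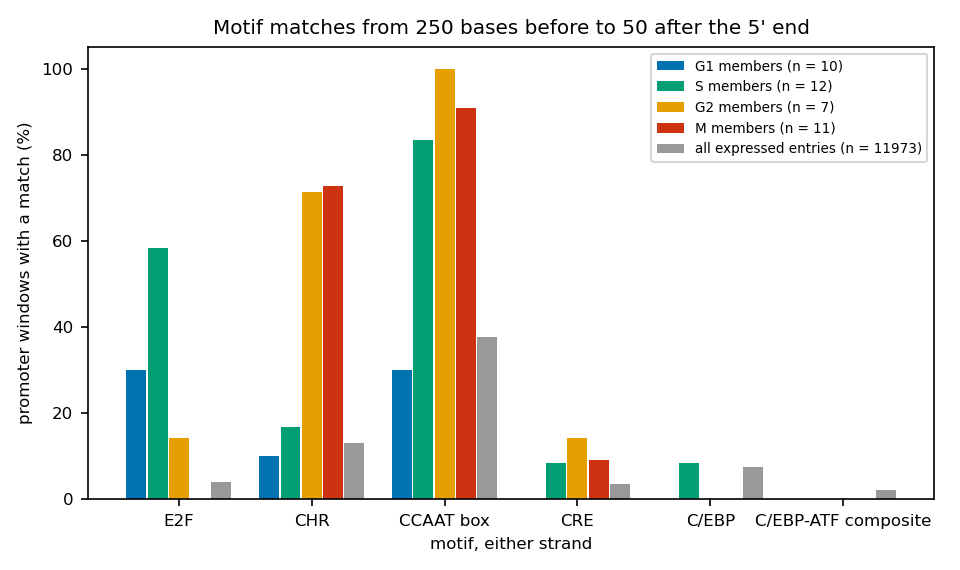
Share of promoter windows (%, vertical axis) with at least 1 match to each motif (horizontal axis) for members of the 4 phases and for all expressed entries. E2F matches stand at 58.3% of S phase members and at 0 of the M phase members, and CHR matches at 71.4% of G2 and 72.7% of M phase members.

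The following stretches show this division. They were picked after the matches were seen, from windows free of annotated exons, and each runs 5′ to 3′ on the gene's own strand of mm9. In the first 3, from the replicative helicase genes, capitals mark E2F elements and CCAAT boxes. Mcm6 is chr1:130256234-130256383, Mcm3 is chr1:20810360-20810509 and Mcm4 is chr16:15637494-15637643, all on the minus strand.
Mcm6: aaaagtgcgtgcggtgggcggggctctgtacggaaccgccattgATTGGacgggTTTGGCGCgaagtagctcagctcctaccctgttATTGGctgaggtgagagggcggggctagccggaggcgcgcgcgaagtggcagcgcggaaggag
Mcm3: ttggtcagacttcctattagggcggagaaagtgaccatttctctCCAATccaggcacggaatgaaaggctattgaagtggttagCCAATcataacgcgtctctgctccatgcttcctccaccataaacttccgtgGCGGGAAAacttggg
Mcm4: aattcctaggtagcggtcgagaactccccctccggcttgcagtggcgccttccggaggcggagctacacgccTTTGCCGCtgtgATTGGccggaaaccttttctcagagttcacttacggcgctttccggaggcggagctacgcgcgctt

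The E2F element began at position -96 from the 5′ end in Mcm6, -80 in Mcm3 and -78 in Mcm4, where -1 is the last base before the 5′ end. In the next 4, from genes of G2 and mitosis, capitals mark the CHR and CCAAT boxes, and in Cdk1 also the E2F element. Cdk1, the kinase that drives entry into mitosis, is chr10:68815687-68815836, Top2a, the topoisomerase that untangles sister DNA, is chr11:98885504-98885653, and Mki67, the gene of the Ki-67 protein that coats mitotic chromosomes, is chr7:142908063-142908212. Cdc20, the activator of the anaphase-promoting complex, is chr4:118109958-118110107. All 4 are on the minus strand.
Cdk1: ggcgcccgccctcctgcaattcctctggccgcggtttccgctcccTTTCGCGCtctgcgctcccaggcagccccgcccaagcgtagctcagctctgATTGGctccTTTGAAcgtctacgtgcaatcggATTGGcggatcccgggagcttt
Top2a: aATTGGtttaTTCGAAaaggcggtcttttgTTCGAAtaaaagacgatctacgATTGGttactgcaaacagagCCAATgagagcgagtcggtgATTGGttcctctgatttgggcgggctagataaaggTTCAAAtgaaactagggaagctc
Mki67: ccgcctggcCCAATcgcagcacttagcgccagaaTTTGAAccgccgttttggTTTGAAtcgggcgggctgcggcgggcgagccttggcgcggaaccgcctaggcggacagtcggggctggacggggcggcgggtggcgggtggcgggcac
Cdc20: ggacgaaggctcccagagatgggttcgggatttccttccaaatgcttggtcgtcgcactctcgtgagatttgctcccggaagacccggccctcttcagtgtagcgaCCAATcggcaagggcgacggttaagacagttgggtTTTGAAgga

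Cdk1 was the only member of the G2 and M phase lists with an E2F element, and it held a CHR as well. The stretch of Top2a held 3 CHR elements and 4 CCAAT boxes.

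In RNA, the members were on the whole lower after 3 h of thapsigargin, and the amount differed from gene to gene. Levels are given as FPKM, fragments per kilobase of transcript scaled to the library's total, and a gene is called lower or higher where it reached FPKM 1 in at least 1 library and log2(FPKM + 1) differed by 1 or more. By this rule 19 of 40 members were lower and 0 were higher, against 28% lower and 6.04% higher among the 12153 expressed entries. The median change was -0.89 for the members and -0.52 for all expressed entries. Over entries that reached FPKM 5 in each library the median change was -0.40, and relative to that the members' median was -0.49.

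Fold values below carry an interval that combines the confidence bounds deposited for the 2 libraries, and it covers counting error only. The interval lay below the untreated level for 37 members and above it for 3, Cdc6, Ccnb1 and Mki67. These bounds correspond to 217 to 25062 fragments per member in untreated cells and 208 to 23766 in treated cells. For 8 members over 10% of exonic bases lie within exons of another gene, so reads of both may mix: Kif20a (32.3%, Cdc23), Ccnd1 (21.3%, Oraov1), Cdk4 (18.6%, Tspan31), Ccne2 (17.4%, Ints8), Ccnd3 (15.7%, Bysl), Rb1 (14.9%, Rcbtb2), Ccna2 (14.6%, Exosc9) and Mcm7 (12.6%, Ap4m1). In bulk RNA, fewer cells in a phase of the cycle and less RNA per cell cannot be told apart.

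The change also moved with gene structure. Among 11733 expressed entries the change correlated with junction density, the exon junctions of a gene's annotated protein-coding transcripts per kb of their length (Spearman rho -0.400, Pearson r -0.39, across genes, which are not independent and share both libraries). The members were richer in junctions than other expressed genes, with medians of 4.32 and 3.39 per kb, and across the 40 members rho was -0.36 and r was -0.33. Set against the median change of genes of like junction density, 6 members were lower (Ccnd2, Ccnd3, Cdk2, Rrm1, Bub1b and Kif20a) and 1, Ccnb1, was higher. On that scale 10% of expressed entries were lower and 12% higher, and the members' median was -0.30. The part of junction density in the members' change was not tested beyond this adjustment, and the value on this scale is called the adjusted change below.

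**Figure D2:**
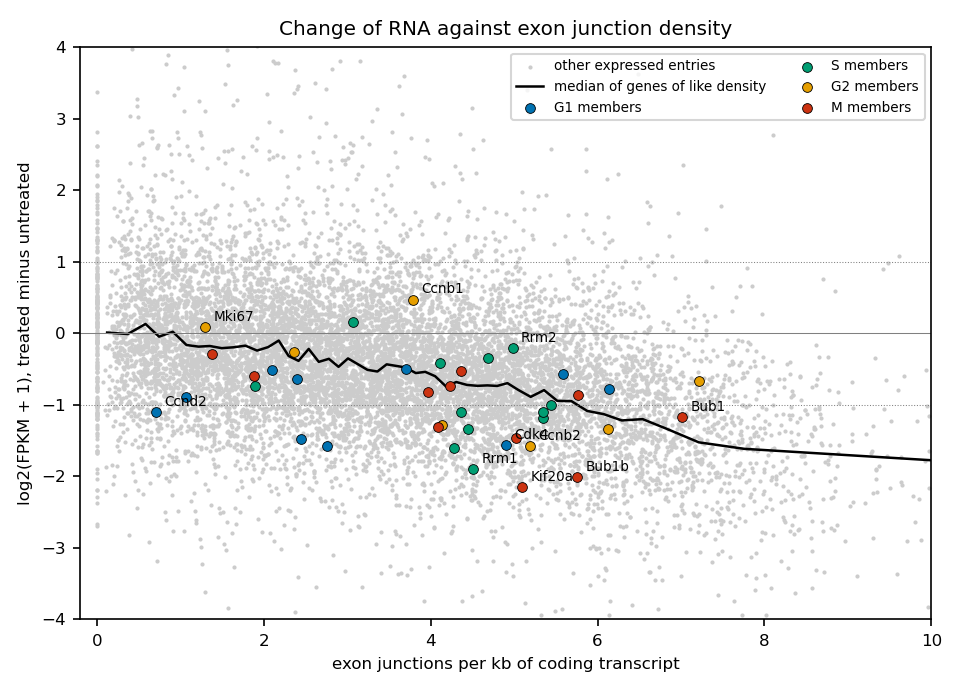
Difference of log2(FPKM + 1), treated minus untreated (vertical axis), against junction density (junctions per kb, horizontal axis) for all expressed entries in grey and members coloured by phase, with the median of genes of like density as a black line. Rrm1, Kif20a, Bub1b and Ccnd2 lie well below the line, Bub1 lies above it at 7.02 junctions per kb, and Ccnb1 lies above it by 1.03. Points outside the plotted range are not drawn.

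Of the 10 G1 members, 4 were lower, with a median change of -0.84, and all 10 had a change below 0. Cdk4, the kinase partner of the D-type cyclins, had the highest FPKM of all members, 206 in untreated cells and 69.1 in treated cells, 2.99-fold lower (interval 2.91 to 3.06). Ccnd3 went from FPKM 74.5 to 26.0, 2.87-fold lower (2.78 to 2.96), and Ccnd2 from 64.9 to 29.7, 2.18-fold lower (2.14 to 2.22). The bounds of the untreated and treated libraries did not overlap for any of these 3. Ccnd3 shared 36.6% of its transcript windows with near-identical sequence elsewhere in the genome, so its level is uncertain, whereas Ccnd2 had none.

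Cdk2, which acts with cyclin E at the start of S phase, had the largest change of the G1 members, from FPKM 15.2 to 4.43, 3.44-fold lower (3.16 to 3.74). Ccnd1 went from FPKM 23.4 to 12.1 and missed the call with a change of -0.90. Ccnd1 and Ccnd2 had few junctions, 1.07 and 0.70 per kb, so their adjusted changes were -0.73 and -1.05. Cdk4, with 4.90 junctions per kb, had an adjusted change of -0.86.

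The cyclin E genes and the E2F and pocket protein members had smaller changes on the log2(FPKM + 1) scale, on which low genes appear to change less. As folds, the cyclin E genes were close to Ccnd1, which was 1.94-fold lower (1.87 to 2.01). Ccne1 went from FPKM 8.71 to 4.64, and Ccne2 from 1.44 to 0.72. E2f1, an activator of S phase genes, went from FPKM 13.5 to 8.32, 1.62-fold lower (1.53 to 1.72). Rb1, which encodes the retinoblastoma protein, went from 4.04 to 2.39, 1.69-fold lower (1.57 to 1.83). None of these 4 was called, with changes between -0.51 and -0.78. Cdk6, the other partner of the D-type cyclins, stood at FPKM 1.51 and 0.77, so Cdk4 exceeded it 136-fold in untreated cells and 90.3-fold in treated cells.

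**Figure D3:**
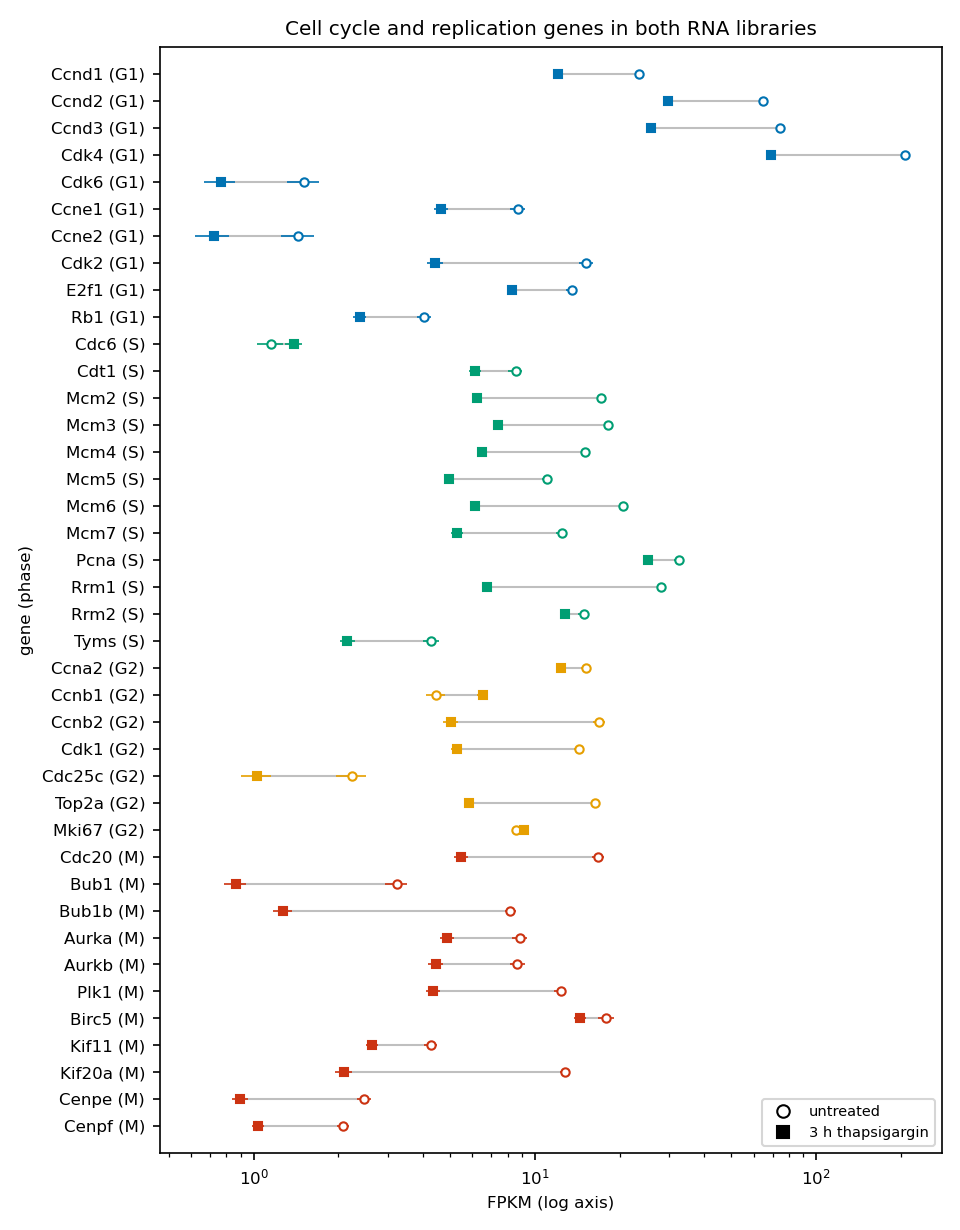
FPKM of each member (log axis) in the untreated library (open circles) and after 3 h of thapsigargin (filled squares), coloured by phase, with the deposited confidence bounds as bars. Cdk4 stands highest at 206 and 69.1, Kif20a, Bub1b and Rrm1 show the widest gaps, and Cdc6, Ccnb1 and Mki67 are the members whose treated value is the higher one.

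In S phase, 7 of 12 members were lower, with a median change of -1.06, and 6 of the 7 were the helicase subunits Mcm2 to Mcm7. They stood between FPKM 11.0 (Mcm5) and 20.6 (Mcm6) in untreated cells and between 4.97 (Mcm5) and 7.39 (Mcm3) in treated cells. Their products join in 1 ring complex, and the ratio of the highest to the lowest FPKM was 1.87 untreated and 1.49 treated. Mcm6 went from FPKM 20.6 to 6.12, 3.37-fold lower (3.20 to 3.55), and Mcm2 from 17.2 to 6.21, 2.77-fold lower (2.64 to 2.91). The other 4 had changes between -1.19 (Mcm3) and -1.01 (Mcm5), and Mcm7 shared 60.3% of its windows with other sequence. After the adjustment none of the 6 was called, and Mcm6 had the lowest adjusted change, -0.92.

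The subunits of ribonucleotide reductase, which makes deoxynucleotides for replication, went apart. Rrm1, the large subunit, went from FPKM 28.1 to 6.76, 4.16-fold lower (3.99 to 4.32), with an adjusted change of -1.17. Rrm2, the small subunit whose level is known to follow S phase, went from FPKM 14.9 to 12.8, a change of -0.21. The Rrm1 level was 1.88 times the Rrm2 level in untreated cells and 0.53 times in treated cells. Their junction densities were alike, 4.50 and 4.98 per kb, and 16.7% of the windows of Rrm2 but none of Rrm1 had near-identical copies.

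Pcna, the sliding clamp of DNA polymerases, had the highest FPKM of the S phase members in both libraries, 32.6 and 25.3, 1.29-fold lower (1.23 to 1.36), but 79.3% of its windows had near-identical copies. Tyms, which makes thymidylate, went from FPKM 4.28 to 2.16, with 25% of its windows copied. Cdt1, a loader of the helicase, went from 8.54 to 6.14, and neither gene was called. Cdc6, the other loader, stood at FPKM 1.15 and 1.39, 1.21-fold higher (1.06 to 1.37), with 38.9% of its windows copied. The 2 loaders had adjusted changes of 0.19 and 0.58, above those of every Mcm gene.

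In G2 and at entry into mitosis, 3 of 7 members were lower, and the B-type cyclins, which activate CDK1, went apart. Ccnb2 went from FPKM 17.0 to 5.02, 3.38-fold lower (3.12 to 3.66), while Ccnb1 went from 4.46 to 6.54, 1.47-fold higher (1.34 to 1.60). The Ccnb1 level was 0.26 times the Ccnb2 level in untreated cells and 1.30 times in treated cells. Ccnb1 had near-identical sequence elsewhere for 77.1% of its windows and Ccnb2 for none, so the Ccnb1 values are uncertain.

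Top2a and Cdk1 were lower as well. Top2a went from FPKM 16.3 to 5.83, 2.80-fold lower (2.69 to 2.92), and Cdk1 from 14.3 to 5.29, 2.71-fold lower (2.55 to 2.87). Ccna2, the cyclin of S phase and G2, stood at FPKM 15.2 and 12.4, a change of -0.27, and Mki67 at 8.58 and 9.13, 1.06-fold higher (1.03 to 1.10). Mki67 is widely used as a marker of cycling cells, and it had 1.29 junctions per kb against 6.12 for Top2a. The adjusted changes of these 4 lay between -0.54 (Cdk1) and 0.26 (Mki67). Cdc25c, the phosphatase that activates CDK1, stood at FPKM 2.24 and 1.03 and was not called.

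In mitosis, 5 of 11 members were lower, and 2 of them had the largest changes of all 40. Kif20a, a kinesin of the central spindle, went from FPKM 12.8 to 2.09, 6.10-fold lower (5.66 to 6.57). Bub1b, a kinase of the spindle checkpoint, went from FPKM 8.18 to 1.27, 6.44-fold lower (5.89 to 7.05). Their changes of -2.15 and -2.02 stood at percentiles 4.45 and 5.61 of expressed entries, and both stayed lower after the adjustment, at -1.36 and -1.06. In Kif20a 32.3% of exonic bases lie within exons of Cdc23.

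Bub1, the partner kinase of the same checkpoint, went from FPKM 3.22 to 0.86, 3.73-fold lower (3.30 to 4.22). It had 7.02 junctions per kb and an adjusted change of 0.35, whose sign is uncertain at this low FPKM. Cdc20 went from FPKM 16.8 to 5.46, 3.07-fold lower (2.86 to 3.30), with 29.4% of its windows copied. Plk1, a kinase of mitotic entry and exit, went from 12.3 to 4.35, with 18.6% of its windows copied. Birc5, which encodes survivin of the chromosomal passenger complex, had the highest FPKM of the mitotic members in both libraries, 18.0 and 14.5, 1.24-fold lower (1.14 to 1.34). Its partner in that complex, Aurkb, went from FPKM 8.68 to 4.44, and Aurka, the spindle pole kinase, from 8.87 to 4.89, with changes of -0.83 and -0.74. Kif11 (4.27 and 2.64), Cenpe (2.47 and 0.90) and Cenpf (2.08 and 1.04), a spindle kinesin and 2 kinetochore proteins, were not called.

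Beyond the members, 126 other expressed cell cycle genes in 6 lists gave 54 lower and 1 higher, 42.9% lower against 28% of all expressed entries, with a median of -0.85. Set against genes of like junction density 6 of them were lower and 12 higher, with a median of 0.05. The spindle and chromosome structure list had 19 of 30 lower and a median change of -1.13, led by Kif22 (FPKM 9.64 to 1.84), Ncapd2 (8.70 to 1.63) and Smc3 (16.8 to 4.55), but 0 of 30 after the adjustment. The replication origin and fork list had 16 of 38 lower, led by Pold1 (8.09 to 0.54), Prim1 (7.72 to 0.70) and Rfc4 (7.99 to 0.76), and 2 of 38 after it. Checkpoint genes had 6 of 13 lower, led by Wee1 (6.08 to 1.33), and 0 of 13 after it, with 2 higher and an adjusted median of 0.32. Cyclin turnover genes had 9 of 22 lower, led by Anapc13 (84.1 to 15.4, with 14.3% of its windows copied), and 3 of 22 after it. E2F, pocket protein and DREAM genes had 4 of 17 lower, 23.5% and so below the share of all expressed entries, led by Rbl2 (9.97 to 2.13), and 1 of 17 after it. Pold1, Prim1 and Rfc4 were 14.8-fold, 11.1-fold and 10.5-fold lower, with adjusted changes of -1.03, -0.74 and -0.73. All of them ended below FPKM 1, where the adjusted scale shows less of a fall. The part of this in the adjusted counts was not tested.

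The CDK inhibitors were the list without a lower call, 0 of 6 lower and 1 higher, with a median of 0.36. Cdkn2b, the p15 inhibitor of CDK4 and CDK6, went from FPKM 9.39 to 23.5, a change of 1.24. Cdkn1a, the p21 inhibitor, went from FPKM 82.7 to 151, a change of 0.86, and Cdkn2c from 14.5 to 24.5, a change of 0.72. Near-identical copies covered 31.25% of the windows of Cdkn2c, so its level is uncertain. Cdkn1b, the p27 inhibitor, went from 33.4 to 20.9. The list had 1.13 junctions per kb at the median, and after the adjustment Cdkn2b and Cdkn1a were both called higher, at 1.29 and 1.07.

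The promoters of the replication and spindle lists divided in the same direction as those of the members. E2F elements occurred in 13 of 38 windows of the origin and fork list and 5 of 30 of the spindle list, while the CHR occurred in 5 of 38 and 20 of 30.

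Treatment and cell type were visible in the same libraries. Hspa5, the chaperone BiP, went from FPKM 354 to 4978, Ddit3, the stress factor CHOP, from 82.9 to 735, and Atf4 from 208 to 849, and all 6 genes of the stress list were higher. Fibroblast markers summed to FPKM 16744 untreated and 4439 treated, with 8 of 12 lower and Col1a1 the most abundant at 6473 and 884. Macrophage and leukocyte markers were present in both libraries, summing to FPKM 1246 and 1389, with 1 of 9 lower and 2 higher. Most of that sum was Lyz2, at 880 and 951, and other markers of the list went apart: Cd74 from 143 to 5.61, Cd14 from 14.8 to 111 and Fcer1g from 77.6 to 189. Muscle and pericyte markers summed to 1195 and 529, nearly all of it Acta2 (1124 and 475), with 2 of 6 lower and 1, Cspg4 (5.82 and 17.4), higher. Melanocyte and Schwann cell markers summed to 54.8 and 8.30 (Sox10 23.4 and 4.31), keratinocyte markers to 29.2 and 2.49 (Krt17 7.17 and 0.33) and endothelial markers to 24.4 and 11.3 (Eng 18.3 and 9.31). Among the defining markers, Krt1 was listed at 0 in untreated cells, and Krt15 and Tyrp1 in treated cells. The part of other cells in the members' values was not tested.

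ATF4 peaks lay within 1 kb of 14 of 40 member loci, 35%, against 35.4% of all entries and 53.2% of expressed entries. There were 18 such peaks, and 13 members had one within 1 kb of the 5′ end, against 47.7% of expressed entries. The 13 were Ccne1, Ccne2 and E2f1 of G1, Cdt1, Mcm4, Mcm6, Pcna and Rrm2 of S phase, Ccna2 and Mki67 of G2, and Cdc20, Birc5 and Kif11 of mitosis. Ccnd3 was the other, with a peak centred 88531 bases into the gene from its 5′ end. Ccne2, Cdt1 and Mcm4 had 2 peaks each near the 5′ end, and E2f1 had 1 there and 1 past its 3′ end. Peak scores are the authors' own and serve only to rank peaks within a list.

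The highest-scoring member peak was that of Birc5, with a score of 10.01, centred at -17 from the 5′ end and above 89.4% of the ATF4 list. Mcm6 followed with 8.85, then Ccne2 with 7.2 for its stronger peak, Pcna with 6.98, Cdt1 with 6.83 and 6.72, Mki67 with 6.67, and E2f1 with 6.66 for the peak past its 3′ end. The other 10 scored from 2.75 (the weaker Mcm4 peak) to 5.25 (the stronger Mcm4 peak), with Cdc20 at 5.07, Ccne1 at 5, Ccna2 at 4.93, Kif11 at 4.88, the weaker Ccne2 peak at 4.58, Rrm2 at 4.32, the 5′ peak of E2f1 at 3.76 and Ccnd3 at 3.61. The median over the 18 was 5.16 and that of the whole list 5.41, so the members' peaks ranked near the middle of the list.

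Elements that ATF4 is known to bind were searched in the same promoter windows. The composite C/EBP-ATF element TGATGNAAN occurred in 0 of 40 member windows, against 3.21% of all windows and 2.02% of those of expressed genes. The cAMP response element TGACGTCA occurred in 3 members, Mcm5, Ccna2 and Cenpe, against 2.48% and 3.44%, and only Ccna2 of these had an ATF4 peak at its 5′ end. Inside the ATF4 peaks themselves, the windows held the cAMP response element of Ccna2 and the E2F element of Cdt1. They also held the C/EBP element of Pcna, the CHR of Kif11, and CCAAT boxes of E2f1, Pcna, Rrm2 and Ccna2. The E2F element of E2f1 at -36 only overlapped the edge of its peak, and that at -23 lay outside it. The exon-free stretch of Birc5 before its 5′ end (chr11:117710401-117710550, plus strand) lies wholly within its peak, chr11:117710373-117710695, and is shown because that peak scored highest; elements named above would stand in capitals, and it has none. The exon-free stretches of Ccne2, Cdt1 and Ccne1 share no base with their peaks and are not shown.
Birc5: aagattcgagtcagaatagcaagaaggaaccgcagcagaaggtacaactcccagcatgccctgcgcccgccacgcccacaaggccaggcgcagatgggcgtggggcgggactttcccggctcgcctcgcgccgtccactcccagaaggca

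Windows of members with an ATF4 peak at the 5′ end had a median GC content of 67.7%, and windows of the other members 57.7%. Over expressed entries the same division gave 65.3% and 58%.

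CEBPB peaks were few at members in the untreated list and near the background share in the treated list. Member loci had a median length of 14.8 kb against 21.4 kb for expressed entries, and the part of length in these counts was not tested. In untreated cells 2 of 40 members had one within 1 kb, against 12.1% of all and 17.9% of expressed entries: Ccnd3, with a peak of score 201.93 in an intron, and Mcm3, with one of score 213.36 centred at -273 from its 5′ end. In treated cells 6 members, 15%, had one, against 12.4% and 16.3%. Ccnd2 had 3, of which one in an intron scored 24.56, above 96.3% of its list, and the others, at the 5′ end, scored 10.44 and 4.77. Mcm3 (score 3.96), Rb1 (3.94) and Top2a (4.32) had peaks in introns, Cdc25c one (4.07) in a coding exon and Pcna one (4.82) at the 5′ end. The median score of the 8 treated peaks was 4.54 against 5.9 for the list, and no M phase member had a CEBPB peak in either list. Scores of the untreated and treated lists are on different scales, and the presence of a peak in one list alone was not tested.

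Pcna was the one member with both an ATF4 and a CEBPB peak at the 5′ end in treated cells. Its ATF4 peak was chr2:132078913-132079118 and its CEBPB peak chr2:132078862-132079094. It was also the one member whose window held the C/EBP element TTGCNNAA, against 9.58% of all and 7.55% of expressed windows, and the element, marked in capitals below, began at -107 from the 5′ end inside both peaks. The stretch is chr2:132079006-132079033 on the minus strand of mm9.
Pcna: ggggcgggccTTGCTCAAaccacgggta

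Members with and without an ATF4 peak at the 5′ end differed in RNA change and in methylation, a division made after the values were seen. With a peak, 3 of 13 were lower (Mcm4, Mcm6 and Cdc20), with a median change of -0.51, and without one 16 of 27 were lower, with a median of -1.10. The adjusted medians were 0.12 and -0.39, and all 6 members lower after the adjustment were without a peak. The ranges overlapped, from -1.60 to 0.08 with a peak and from -2.15 to 0.47 without. Over all expressed entries the same division gave 25.5% lower with a peak and 30.6% without, with medians of -0.46 and -0.58. After the adjustment 492 of the 5716 expressed entries with a peak and 685 of the 6258 without were lower. Their adjusted medians were 0.05 and -0.002. Junction densities were alike in both sets of members, 4.27 and 4.45 per kb at the median.

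In untreated cells the 5′ ends of the members were close to free of CpG methylation. The mean of the CpG percentages within 500 bp of the 5′ end was 1.07% over the 40 members, with a median of 0.29%, and all 40 lay below 10%, against 83.6% of expressed and 58.4% of all entries with data. The lowest was Birc5 at 0.024% and the highest Ccnd3 at 6.97%, followed by Top2a at 5.42%, Bub1b at 3.56% and Cdk4 at 3.33%. The file holds no coverage, so the depth behind these values is unknown. The median was 0.59% for G1, 0.73% for S, 0.43% for G2 and 0.17% for M phase members, against 0.77% for expressed entries. Below 1% lay 65% of members and 53.6% of expressed entries with data.

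Methylation was higher on both sides, away from the 5′ end. In 100-bp bins the members' mean was 0.08% just before the 5′ end and 0.76% just after it, against 4.91% and 5.66% for expressed entries. In the bin centred at -950 it was 41.8% and in that at 950 it was 16.9%, against 48.9% and 30.3%. At the edges of the profile, -1950 and 1950, it was 70.8% and 71.2%, against 67.3% and 65.4% for expressed entries. The members' mean lay below that of expressed entries at -950 and 950 and above it at the edges. The low stretch reached farther into the gene than upstream of it, in the members and in expressed entries alike.

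**Figure D4:**
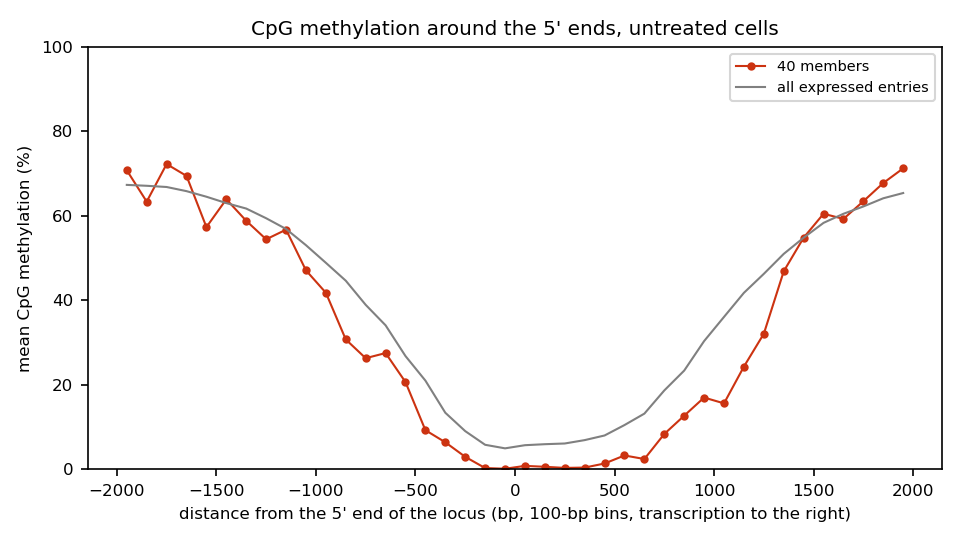
Mean CpG methylation (%, vertical axis) in 100-bp bins by distance from the 5′ end (bp, horizontal axis) for the 40 members and for all expressed entries in untreated cells. The members' curve lies near 0 around the 5′ end and returns to about the level of expressed entries by 1450 bases downstream, 54.8% for both.

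The division by ATF4 peak also divided the methylation values. With a peak at the 5′ end the members lay between 0.024% (Birc5) and 0.13% (Cdc20), with a median of 0.064% over a median of 172 CpG cytosines. Without one they lay between 0.068% (Kif20a) and 6.97% (Ccnd3), with a median of 1.14% over 112 cytosines. Of the 27 without a peak, 5 (Kif20a, Cenpf, Mcm5, Rb1 and Cdc25c) lay within the range of those with one. Among expressed entries the medians were 0.32% over 155 cytosines with a peak and 2.15% over 96 without. CpG number and GC content moved with this division, and their part in it was not tested.

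**Figure D5:**
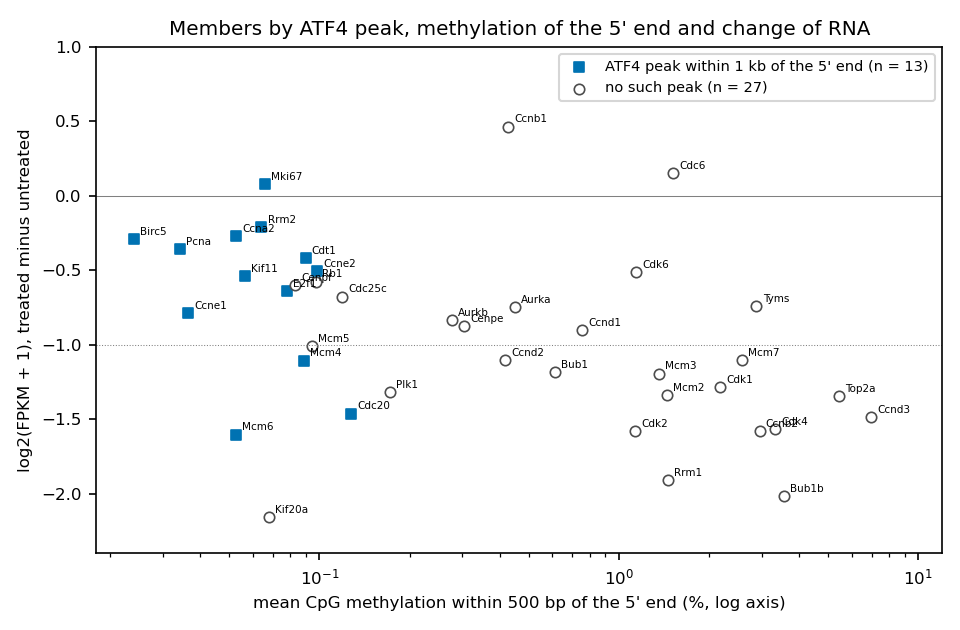
Difference of log2(FPKM + 1), treated minus untreated (vertical axis), against mean CpG methylation within 500 bp of the 5′ end (%, log axis) for the 40 members, with filled squares for the 13 with an ATF4 peak within 1 kb of the 5′ end and open circles for the 27 without. The squares all lie at or below 0.13%, and 3 of them lie below a change of -1.

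The 3′ ends were methylated at 50% or more in every member with data, as in most entries. Among entries with at least 5 CpG cytosines there, 92.0% of expressed and 89.7% of all reached 50%. Of the 40 members 37 had at least 5 CpG cytosines within 500 bp of the 3′ end, and their mean was 78.9%, against 75.1% for expressed entries. The lowest was Cdc6 at 51.8% and the highest Mcm2 at 91.4%. By phase the medians were 74.7% for G1, 78.6% for S, 86.7% for G2 and 84.2% for M phase members. The median was 80.4% over the 37 members and 80.4% over expressed entries. Bub1 had no CpG cytosine with a value there, and Mcm4 and Ccnb2 had 4 each.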

How the data were processed

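RNA levels are FPKM values with confidence bounds and a status, deposited by the authors per gene. Peak lists hold positions and a peak score, per the file headers, and the authors' CEBPB peak names carry the word MACS; the methylation table holds a percent per cytosine, deposited by the authors with the 2 libraries pooled. The submitters' processing notes name CASAVA 1.8.2 and Bowtie (RNA), CASAVA 1.7, BWA and SAMtools (immunoprecipitation), CASAVA 1.8 and Novoalign (bisulfite) and build mm9. The FPKM program, its annotation and the peak controls: not given in the sources used here.

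Here FPKM was compared as log2(FPKM + 1), a scale on which low genes appear to change less. All 40 members had status OK in both libraries. A bound was taken as 2 standard errors. Fragments implied by the bounds over all entries summed to 53.8 (untreated) and 78.9 (treated), in units of 1e+06, and were whole within 0.05 for 74.6% and 79.3% of entries with 3 to 200 of them. Loci were matched to GENCODE on mm9 for strand, junctions and promoters. The adjusted change subtracts the median of 1 of 50 bins of entries at FPKM 5 or more. Near-identical copies are 100-base transcript windows found elsewhere with up to 3 mismatches (minimap2 2.31-r1302); over 10% is called uncertain. Peaks numbered 7317 (CEBPB untreated), 7861 (CEBPB treated) and 10109 (ATF4). The change and the adjustment were checked on data with known answers, from genes at FPKM 5 or more in untreated cells. The motif search was checked on planted CCAAT boxes, and the other calculations had no such check. The rule for named genes took, per phase, the 3 members with the highest FPKM and the 3 with the largest change, every member with a peak, and the extremes of methylation. Members, lists and rules were chosen with earlier results of these data known. Cdkn2d, Claspn and Adgre1 had no single row under those symbols and were not analysed here.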

Additional observations from a re-analysis of the deposited data

How the results depend on the processing

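The members' lower count of 19 became 10 with a pseudocount of 5, 9 when centred on the median, 6 against genes of like junctions (with 1 higher in place of 0), and 11 among the 21 members without near-identical copies. Their median change became -1.09 with a pseudocount of 0.1, -0.52 with 5, -1.10 for members at FPKM 5 or more, -0.49 when centred, -0.30 against like junctions and -1.01 without copies. Bub1 turned to 0.35 against like junctions, the only one of the 19 to change sign in the 6 settings tried for single genes. At its low FPKM that sign is uncertain. With peaks at or above the median score of their list, 7 members had an ATF4 peak and 1 a treated CEBPB peak. Within 1 kb of the 5′ end, 1 had an untreated and 2 a treated CEBPB peak. Mean CpG methylation at 5′ ends was 4.19% within 1000 bp. At 3′ ends it was 80.7% within 200 bp and 80.1% with both strands required. Alternatives chosen after seeing the data were these. With an ATF4 peak at the 5′ end, members lower went from 3 to 0 against like junctions, 0 of 5 without copies and 1 of 6 with peaks above the median score, and those without a peak from 16 to 6 against like junctions, 11 of 16 without copies and 18 of 34. Motif counts of S phase (E2F, 7) and of G2 and M phase (CHR, 13) were the same in a window starting 100 bases before the 5′ end. No paired analysis was possible because each RNA and immunoprecipitation condition has 1 library. Depth limits Cdk6, Ccne2, Cdc6 and Cdc25c most, and the depth of methylation calls is unknown.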
